A study of Lotus japonicus with 14 samples.

Results

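Of 38476 gene models counted in Lotus japonicus, 41 were nearly silent in uninoculated roots, low on average in nodules at 5 days after inoculation (dai) and abundant in nodules at 10 dai. They were selected on their levels in CPM, a count expressed per fixed library size, after TMM scaling between libraries. A member had under 1 CPM in both root libraries, a mean under 5 CPM over the 4 libraries of 5 dai, and a mean of at least 30 CPM over 3 libraries of 10 dai. These 3 were wild type with strain MAFF303099, wild type with strain TONO, and apn1 with MAFF303099. The silence in roots, the low level at 5 dai and the high level at 10 dai in these libraries therefore chose the members and are no findings. The 4 libraries of 7 dai and the library of apn1 with TONO at 10 dai were not used to choose them.

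Root nodules are organs that legumes form around compatible rhizobia, which enter the plant cells, differentiate and reduce atmospheric nitrogen for the host. The plant genes used in this process fall into waves: some respond to infection and organ formation, and others appear only when the nodule matures and fixation begins. Leghaemoglobins, which keep free oxygen low in infected cells, are the best known of the late group. APN1 is known as a nodule-induced aspartic peptidase of L. japonicus whose loss restricts effective symbiosis with particular strains of Mesorhizobium loti, TONO among them.

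The study compared wild type plants of accession MG20 (Miyakojima) with plants of the Fix- mutant apn1, grown without nitrogen in the medium and inoculated with M. loti MAFF303099 or TONO. Nodule primordia and nodules were excised at 5, 7 and 10 dai, and roots of both genotypes that received no rhizobia were the controls. All 14 conditions have a single library and no replicate error. The number of plants behind a library, the age of the roots and the line in which apn1 arose are not stated in the labels. Total counts ran from 33981124 to 58395305, and the 4 libraries of 10 dai were the shallowest. None of the identifiers matched the supplied annotation table, which belongs to another assembly. Members are therefore given by identifier, with no gene name, role, length or sequence, and the nodule tissue could not be checked against marker genes. CPM is not divided by length, so levels are compared between libraries and not between gene models.

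At 7 dai, which the selection did not use, most members already stood far above their level at 5 dai in both genotypes and with both strains. In the roots, the median member had 0.186 CPM in wild type and 0.294 CPM in apn1. With MAFF303099 it had 2.63, 28.4 and 66.9 CPM on days 5, 7 and 10 in the wild type, against 2.22, 28.7 and 72.2 CPM in apn1. With TONO it had 0.895, 22.7 and 84.9 CPM in the wild type, against 0.771, 25.2 and 33.8 CPM in apn1. The 7 dai libraries of both genotypes lay close together, whereas at 10 dai apn1 with TONO was the lowest of the 4. From 5 to 7 dai, members differed by a median log2 of 4.24 (wild type) and 4.74 (apn1) with MAFF303099, and of 5.01 and 4.71 with TONO. The smallest step of a member was 0.20 (wild type) and 1.15 (apn1) with MAFF303099, and 0.50 and 1.32 with TONO. Log2 differences here and below are between log2 CPM values with a prior count of 2, which understates the change of gene models with few counts. The low values of 5 dai were part of the selection, so the size of this step is a description. That limit applied to the mean of 5 dai. In wild type with MAFF303099 at 5 dai, 10 members had at least 5 CPM, up to 9.75 CPM, and in apn1 with MAFF303099 3 did.

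**Figure D1:**
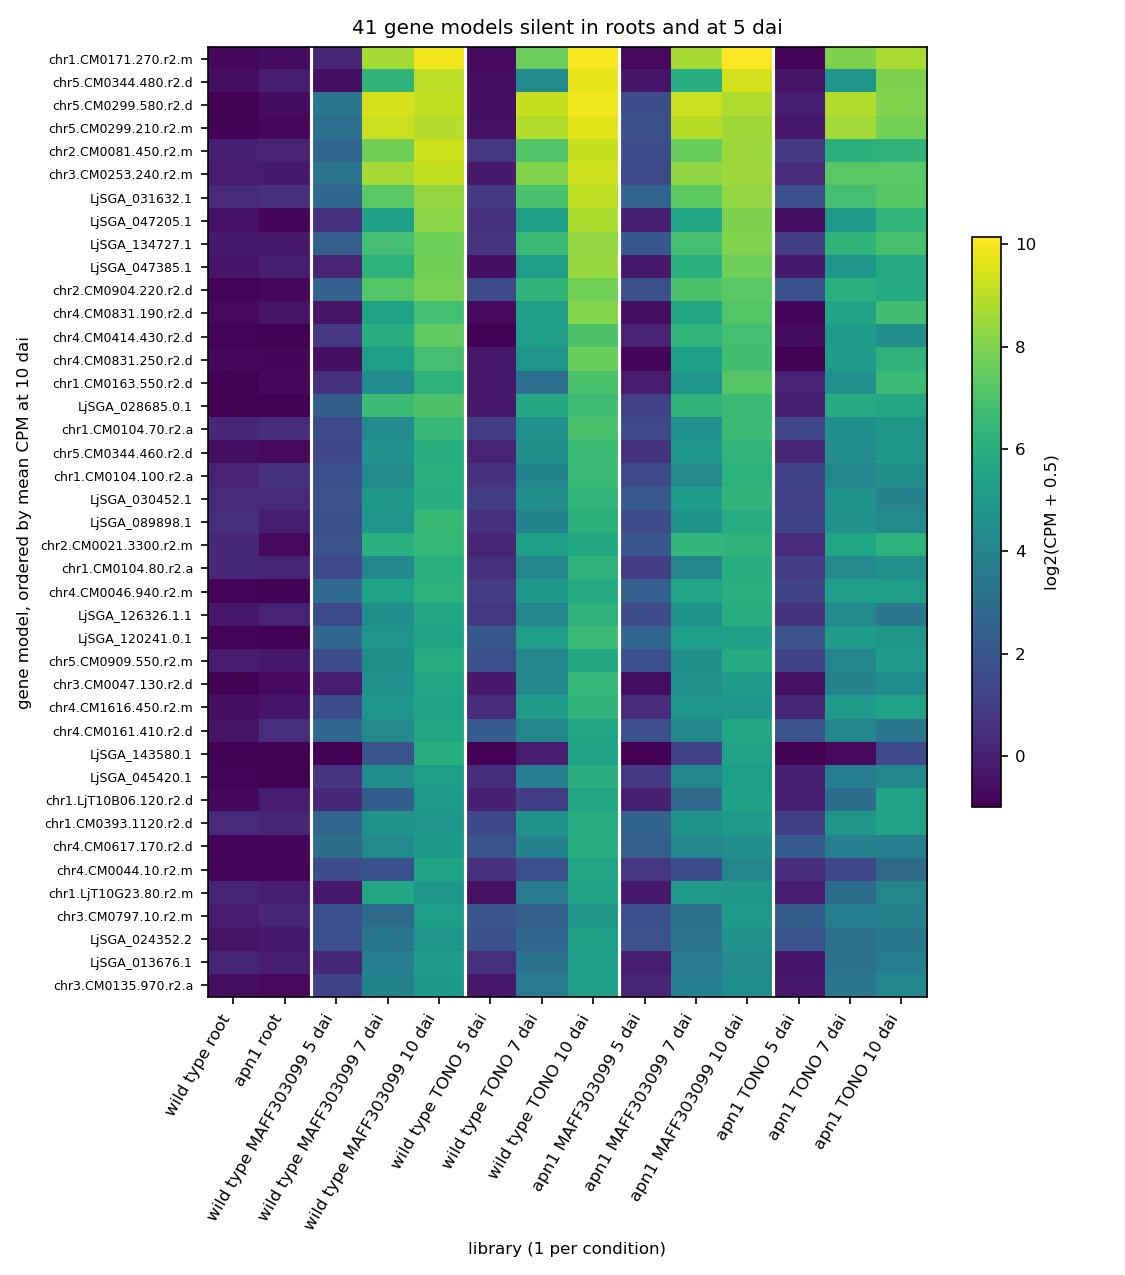
Level of each of the 41 gene models (rows, ordered by mean CPM at 10 dai) in the 14 libraries (columns, 1 per condition), as log2(CPM + 0.5) in colour. Roots and 5 dai nodules are dark by selection; the columns of 7 dai are intermediate to bright for most rows, and the last column, apn1 with TONO at 10 dai, is darker than the other 3 columns of 10 dai.

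The share of all counts that fell on the 41 gene models followed the same course. It was 0.00123% in the wild type root (95% Wilson interval 0.00114 to 0.00133) and 0.00141% in the apn1 root (0.00131 to 0.00151). With MAFF303099 it was 0.0147, 0.385 and 0.630% on days 5, 7 and 10 in the wild type, against 0.00920, 0.343 and 0.570% in apn1. With TONO it was 0.00493, 0.253 and 0.697% in the wild type, against 0.00569, 0.239 and 0.282% in apn1. Wild type with TONO thus had less than wild type with MAFF303099 at 5 and 7 dai and more at 10 dai. In apn1 with TONO the share at 10 dai was 0.282% (0.280 to 0.283), close to that at 7 dai, 0.239% (0.237 to 0.240). These intervals cover counting error only. In bulk nodules, fewer cells of a type and less RNA per cell cannot be told apart.

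**Figure D2:**
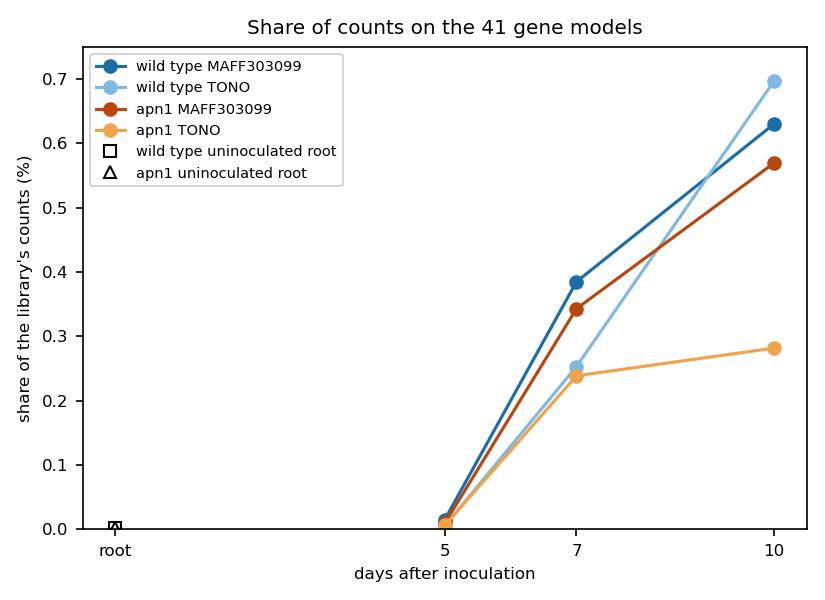
Share of each library's counts on the 41 gene models (percent, vertical axis) against days after inoculation, with the uninoculated roots at the left; each point is 1 library and lines join the days of a genotype and strain. At 10 dai 3 libraries lie between 0.570 and 0.697%, and apn1 with TONO lies at 0.282%.

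These counts were spread unevenly over the members. The 4 with the highest mean CPM at 10 dai held 39.4% of the members' summed mean CPM and the top 10 held 69.9%, and 17 members had a mean of at least 100 CPM. These are shares of counts, which also depend on the lengths of the gene models, not shares of RNA molecules. The first by CPM was chr1.CM0171.270.r2.m. In the roots it had 0.0930 CPM in wild type and 0.156 CPM in apn1. With MAFF303099 it had 0.633, 394 and 965 CPM on days 5, 7 and 10 in the wild type, against 0.107, 410.3 and 1130.1 CPM in apn1. With TONO it had 0.133, 195 and 1056 CPM in the wild type, against 0.0462, 244 and 428 CPM in apn1. At 7 dai both TONO libraries lay below both MAFF303099 libraries. At 10 dai only apn1 with TONO lay apart from the other 3, which were within 965 to 1130.1 CPM.

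The second by CPM, chr5.CM0344.480.r2.d, came later. It had 0.167 and 0.467 CPM in the wild type and apn1 roots. With MAFF303099 it had 0.162, 77.7 and 526 CPM on days 5, 7 and 10 in the wild type, against 0.286, 60.4 and 657 CPM in apn1. With TONO it had 0.166, 20.3 and 843 CPM in the wild type, against 0.262, 27.2 and 248 CPM in apn1. Its mean at 7 dai was 6.87% of its mean over the 3 libraries of 10 dai used to choose the members. Wild type with TONO went from the lowest level of the 4 at 7 dai to the highest at 10 dai.

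The next pair, chr5.CM0299.580.r2.d and chr5.CM0299.210.r2.m, were already near their full level at 7 dai. For chr5.CM0299.580.r2.d, the wild type root had 0 counts, which allows up to 0.0558 CPM (3 counts), and the apn1 root 0.138 CPM. With MAFF303099 it had 9.75, 697 and 559.9 CPM on days 5, 7 and 10 in the wild type, against 2.72, 599.7 and 449 CPM in apn1. With TONO it had 0.182, 571 and 959 CPM in the wild type, against 0.462, 469 and 261 CPM in apn1. It was lower at 10 than at 7 dai in 3 of the 4 combinations, with wild type with TONO as the exception. The level of chr5.CM0299.210.r2.m moved with it: the ratio of the former to the latter stayed between 1.14 and 1.22 in the 8 libraries of 7 and 10 dai. The SD of this log2 ratio was 0.034, against a median of 0.70 over all 820 pairs of members. A pair of neighbouring models on the same contig that are no members, numbered 570 and 200, kept a ratio of 1.23 to 1.46. Near-identical copies can share reads, so the counts of these members are uncertain as separate values; whether they share reads was not tested.

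Members differed in how far they had come at 7 dai. The mean over the 4 libraries of 7 dai ran from 2.75 to 89.0% of the mean over the 3 libraries of 10 dai, with a median of 34.4%. It was at least 50% for 11 members and under 20% for 6. The latest was LjSGA_143580.1, with 0 counts in both roots and in all 4 libraries of 5 dai, where 3 counts are 0.0462 to 0.0558 CPM. With MAFF303099 it had 3.16 and 62.4 CPM at 7 and 10 dai in the wild type, against 1.73 and 41.9 CPM in apn1. With TONO it had 0.409 and 43.5 CPM in the wild type, against 0.109 and 2.32 CPM in apn1. Apn1 with TONO was the lowest library on both days, on 6 counts at 7 dai and 79 counts at 10 dai. Next after chr5.CM0344.480.r2.d came chr4.CM0044.10.r2.m, named after its values were seen, whose mean at 7 dai was 7.46% of that at 10 dai. Its mean was 1.39 CPM over the 5 dai libraries, 2.67 CPM over the 7 dai libraries and 35.9 CPM over the 3 of 10 dai.

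The gene models nearest to each limit, picked for that, had close values on both sides of it. Nearest to the root limit were chr1.CM0104.100.r2.a inside, at 0.986 CPM in the higher root, and chr3.CM0282.630.r2.m outside, at 1.04 CPM. Nearest to the 5 dai limit were chr4.CM0617.170.r2.d inside, at a mean of 4.89 CPM, and chr4.CM0244.360.r2.d outside, at 5.05 CPM. Nearest to the 10 dai limit were chr3.CM0135.970.r2.a inside, at a mean of 30.02 CPM, and LjSGA_030221.1.1 outside, at 28.3 CPM. At 7 dai, which set no limit, the means inside and outside were 17.4 and 2.17 CPM for the root pair. They were 16.9 and 20.8 CPM for the 5 dai pair and 12.9 and 119 CPM for the 10 dai pair. A further 68 gene models missed only the root limit, 78 only the limit at 5 dai and 10077 only that at 10 dai. All 41 members passed the filter on low counts, in part through the high levels for which they were chosen.

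By their identifiers, 8 members lie on chromosome 1, 3 on chromosome 2, 4 on chromosome 3, 8 on chromosome 4 and 5 on chromosome 5. As shares, these are 19.5, 7.32, 9.76, 19.5 and 12.2% of the members, against 13.7, 9.14, 9.29, 9.35 and 7.27% of all gene models. None lies on chromosome 6, which holds 5.73% of all gene models. LjSGA identifiers, which name no chromosome, belong to 13 members (31.7%), against 42.2% of all gene models. These differences were not tested. There are 4 contigs with more than 1 member, which hold 9 members in all. The longest run was chr1.CM0104.70.r2.a, chr1.CM0104.80.r2.a and chr1.CM0104.100.r2.a, which follow each other in the list of gene models of their contig. In the order of these numbers, they had 89.9, 66.9 and 66.6 CPM in wild type with MAFF303099 at 10 dai. Wild type with TONO had 122, 75.7 and 96.4 CPM, apn1 with MAFF303099 99.0, 61.5 and 72.2 CPM, and apn1 with TONO 29.2, 23.9 and 21.9 CPM. Each of the 3 was lowest in apn1 with TONO on that day. On the preceding model, chr1.CM0104.40.r2.a, which is no member, the roots already had 27.0 and 19.9 CPM. The following model, chr1.CM0104.110.r2.a, had at most 3.47 CPM in any library. The run may be several genes or pieces of fewer genes, which identifiers do not show.

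At 7 dai most members were lower with TONO than with MAFF303099. The median log2 difference came to −0.45 for wild type nodules, with 37 of 41 members lower. For apn1 nodules it was −0.38, with 35 lower. Over all gene models tested, the medians were −0.01 and 0.00. At least 2-fold lower with TONO were 6 members in wild type, against 4.8% of all gene models tested, and 7 in apn1, against 2.39%. No member was at least 2-fold higher with TONO in either genotype, against 3.14% of all gene models in wild type and 2.32% in apn1. Both TONO libraries lay below both MAFF303099 libraries for 30 of 41 members, against 20.7% of all gene models, and above both for 2, against 20.4%. None of these libraries chose the members, but 2 of the 3 libraries of 10 dai that did were from MAFF303099 nodules.

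A fit to the 4 libraries of 7 dai, with strain and genotype as terms, called 14 members lower with TONO and 0 higher (edgeR quasi-likelihood test, Benjamini-Hochberg adjusted p under 0.05 over 32637 gene models). Over all gene models, 1.99% were called lower and 2.58% higher. The largest difference was that of LjSGA_143580.1 (fitted log2 difference −3.35, SE 0.49, edgeR adjusted p = 2.55e-09), which rests on 180 and 94 counts with MAFF303099 and 19 and 6 with TONO. Next was chr1.LjT10G23.80.r2.m (−2.21, SE 0.17, edgeR adjusted p = 8.04e-36). It had 51.4 and 32.5 CPM with MAFF303099 in wild type and apn1, and 11.1 and 7.08 CPM with TONO. The 2 members with the highest CPM were also called: chr5.CM0344.480.r2.d (−1.54, SE 0.15, edgeR adjusted p = 7.99e-21) and chr1.CM0171.270.r2.m (−0.88, SE 0.17, edgeR adjusted p = 1.25e-05). The strains did not overlap for any of these 4, each being lower with TONO in 2 of 2 genotypes. The fit leaves 1 residual degree of freedom and takes most of its spread from other gene models, so its p-values measure libraries rather than replicated conditions. Without the genotype term 7 members were called. The share of all gene models called was not computed for this form, nor with a library left out of it. In that form, 0 were called without wild type with MAFF303099, 3 without apn1 with MAFF303099, 10 without wild type with TONO and 11 without apn1 with TONO.

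**Figure D3:**
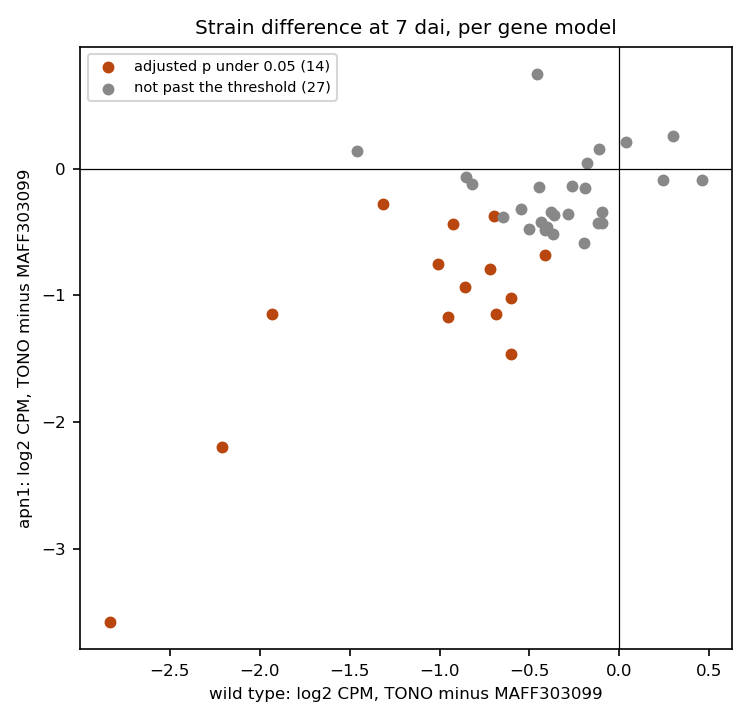
Difference between strains at 7 dai (log2 CPM, TONO minus MAFF303099) in wild type (horizontal axis) and apn1 (vertical axis), 1 point per gene model, with the 14 called by the fit to the 7 dai libraries in colour. Most points lie in the lower left part, where TONO is lower in both genotypes, and the medians are −0.45 and −0.38.

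Members were also lower with TONO at 5 dai, and in wild type they were higher with TONO at 10 dai, in libraries that chose the members with equal weight for the strains at 5 dai and in wild type at 10 dai. At 5 dai the median log2 difference of TONO from MAFF303099 was −1.23 in wild type, with 23 members at least 2-fold lower against 5.79% of all gene models. In apn1 it was −0.71, with 15 members at least 2-fold lower against 2.83%. Other root-silent gene models stood likewise at 5 dai. In wild type 34 of 72 gene models with a high level at 5 dai (47.2%) and 53 of 116 late ones with a lower level at 10 dai (45.7%) were at least 2-fold lower with TONO, beside 56.1% of the members. In apn1 the shares were 22.2%, 19.8% and 36.6% in this order. The differences between these sets were not tested. At 10 dai the wild type median was 0.53, with 30 members higher with TONO, 4 of them at least 2-fold, against 5.24%. The library of wild type with TONO at 10 dai had the smallest TMM factor, 0.762. Without TMM scaling the median was 0.27, while that of all gene models moved from −0.01 to −0.27.

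Between the genotypes, the median difference of the members was near 0 at 7 dai with either strain, and its sign changed with the scaling or the choice of members. The median log2 difference of apn1 from wild type was −0.05 with MAFF303099, where the members ran from −0.85 to 0.61. None was at least 2-fold higher in apn1, against 2.56% of all gene models tested, or at least 2-fold lower, against 2.09%. With TONO the median was −0.00, and members ran from −1.59 to 2.22. Here 3 members were at least 2-fold higher in apn1, against 4% of all gene models tested, and 2 at least 2-fold lower, against 2.17%.

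The fit to the 7 dai libraries called 3 members higher in apn1, against 1.06% of all gene models, and 2 lower, against 0.444% (edgeR adjusted p under 0.05). The largest was chr1.LjT10B06.120.r2.d (fitted log2 difference 1.37, SE 0.26, edgeR adjusted p = 2.29e-05). It had 4.39 and 6.74 CPM in wild type and apn1 with MAFF303099, and 1.57 and 7.45 CPM with TONO. Apn1 was higher with both strains, and the gap was wider with TONO. Next was chr1.CM0163.550.r2.d (1.03, SE 0.17, edgeR adjusted p = 6.19e-07), with 19.98 and 28.7 CPM with MAFF303099 and 8.01 and 23.6 CPM with TONO. Also called higher was chr3.CM0797.10.r2.m (0.87, SE 0.21, edgeR adjusted p = 0.0042), named since it completes the 3. Lower in apn1 were chr1.LjT10G23.80.r2.m (−0.65, SE 0.16, edgeR adjusted p = 0.0066) and chr2.CM0081.450.r2.m (−0.61, SE 0.15, edgeR adjusted p = 0.00839). Each of these differences had the same direction with 2 of 2 strains. The calls depend on the strain term: without it 0 members passed, also when any 1 of the 4 libraries was left out, and with DESeq2 1 passed.

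At 10 dai few members were far apart between the genotypes with MAFF303099. The median log2 difference of apn1 from wild type was −0.13. Of the 41 members 1 was at least 2-fold higher in apn1, against 5.5% of all gene models, and 1 at least 2-fold lower, against 5.56%. Both libraries chose the members with the same weight.

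With TONO at 10 dai the members were lower in apn1 than in wild type, by a median of −1.83 on the log2 scale, or 3.55-fold. Lower in apn1 were 40 of 41 members, and 33 were at least 2-fold lower, against 8.51% of all gene models tested. No member was at least 2-fold higher, against 12%. The wild type library helped to choose the members and the apn1 library did not, which leans this difference towards lower values in apn1. Choosing members on roots and MAFF303099 libraries alone, so that neither TONO library was used, left 29 gene models, all among the 41. Their median was also −1.83, with 23 of 29 at least 2-fold lower. Without TMM scaling the median of the 41 was −1.43, with 28 members at least 2-fold lower and 38 lower, while the median of all gene models moved from 0.03 to 0.42.

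**Figure D4:**
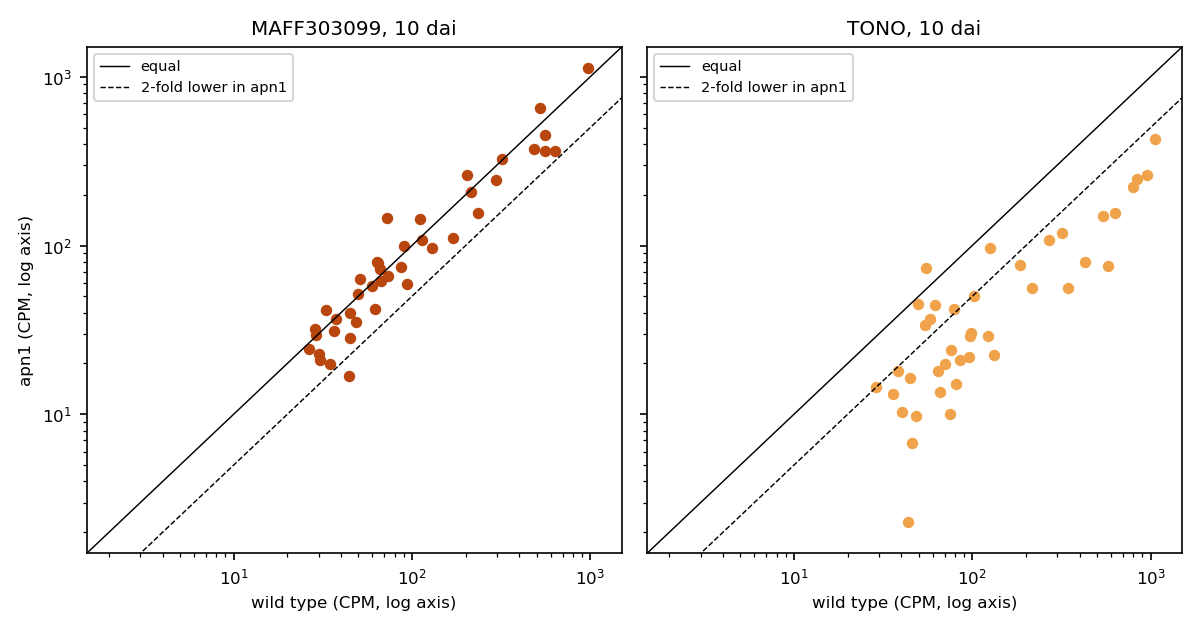
Level at 10 dai in wild type (horizontal axis) and apn1 (vertical axis), both in CPM on log axes, with MAFF303099 (left) and TONO (right), 1 point per gene model; the solid line marks equal levels and the dashed line a 2-fold lower level in apn1. With MAFF303099 the points follow the line of equal levels, and with TONO 33 of 41 lie on or below the dashed line.

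Apn1 with TONO at 10 dai was also low beside apn1 with MAFF303099. The median log2 difference was −1.11, with 23 members at least 2-fold lower with TONO, against 5.85% of all gene models. For 36 members it lay below all 3 libraries of 10 dai that chose them, against 29.6% of all gene models. TONO was above MAFF303099 in wild type and below it in apn1 for 27 members, against 23.3%. The 3 libraries set beside apn1 with TONO here, apn1 with MAFF303099 included, were used to pick members with high levels. A lower value in the fourth is favoured by that choice and the shares over all gene models are not selected in this way, so these counts are a description. As a share of the mean of those 3 libraries, the level in apn1 with TONO ran from 4.70 to 109%, with a median of 38.0%. It was under 50% for 31 members and under 25% for 9.

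The members at the ends of this range differed in other respects too. Lowest was LjSGA_143580.1, at 4.70%, which was also the latest member at 7 dai. Second lowest was chr2.CM0081.450.r2.m, at 14.5%. It had 0.502 and 0.536 CPM in the wild type and apn1 roots. With MAFF303099 it had 5.66, 211 and 635 CPM on days 5, 7 and 10 in the wild type, against 2.63, 187 and 361 CPM in apn1. With TONO it had 1.21, 139 and 581 CPM in the wild type, against 1.29, 67.9 and 75.9 CPM in apn1. Its level in apn1 with TONO was nearly the same on both later days. At the other end, 3 members reached the mean of the other libraries: chr1.CM0393.1120.r2.d and chr1.LjT10B06.120.r2.d, at 109% each, and chr2.CM0021.3300.r2.m at 102%, named since it completes the 3. For chr1.LjT10B06.120.r2.d, the levels at 10 dai were 32.9 and 41.2 CPM in wild type and apn1 with MAFF303099, and 49.5 and 44.8 CPM with TONO. For chr1.CM0393.1120.r2.d they were 28.6 and 31.9 CPM with MAFF303099, and 61.5 and 44.5 CPM with TONO. In both cases apn1 with TONO lay within the range of the other 3 libraries. Across the 41 members, how far a member had come at 7 dai with MAFF303099 was weakly related to its log2 difference between apn1 and wild type with TONO at 10 dai (Spearman's rho 0.21, Pearson's r 0.35). This is a description across gene models of the same libraries.

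A fit to the 12 nodule libraries, with genotype-strain combination and day as terms and 1 further term for apn1 with TONO at 10 dai, was added after the data were seen. It asks how far that library departs from what its strain, genotype and day predict. It called 7 members lower and 0 higher (edgeR adjusted p under 0.05 over 32549 gene models), against 2.18% and 2.03% of all gene models. The term describes 1 library and was added once that library had been seen to be low. The 5 and 10 dai levels behind its prediction come largely from libraries that chose the members, which favours a departure to lower values. The count is therefore a description and no test of the members. For the alternatives to this fit given below, the share of all gene models called was not computed. Largest was LjSGA_126326.1.1, with a fitted log2 departure of −2.19. Its levels at 10 dai were 51.2 and 63.0 CPM in wild type and apn1 with MAFF303099, and 75.2 and 10.1 CPM with TONO. Next was chr4.CM0161.410.r2.d, with a departure of −2.15 and levels of 49.9 and 51.3 CPM with MAFF303099 and 48.5 and 9.73 CPM with TONO. In both, apn1 with TONO lay below the other 3 levels, which were close together for chr4.CM0161.410.r2.d and more spread for LjSGA_126326.1.1. The other 5, named after their values were seen, were chr3.CM0797.10.r2.m, LjSGA_089898.1, LjSGA_030452.1, chr1.CM0104.70.r2.a and chr1.CM0104.80.r2.a, with departures of −1.96, −1.95, −1.93, −1.84 and −1.53. The count was 0 without apn1 with TONO at 7 dai, 2 without apn1 with TONO at 5 dai, and 3 without wild type with MAFF303099, wild type with TONO or apn1 with MAFF303099, all of 7 dai. Leaving out day 7 whole gave 0 and day 5 whole gave 4, and DESeq2 called 11.

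In apn1 with TONO, where neither the 7 nor the 10 dai library chose the members, 29 members were higher and 12 lower at 10 than at 7 dai. The median log2 difference was 0.40. At least 2-fold higher were 10 members, against 5.24% of all gene models, and none was at least 2-fold lower, against 7.8%. The other combinations are given beside it as a description, with no comparison of the gains, since their 10 dai libraries were picked to be high by the choice of members. The median was 1.33 in wild type with MAFF303099, with 25 members at least 2-fold higher, against 8.03%. It was 2.11 in wild type with TONO, with 36 members, against 10.7%, and 1.18 in apn1 with MAFF303099, with 23 members, against 7.06%. Levels increased from 5 to 7 and again to 10 dai for 41 members in wild type with TONO, 38 in wild type with MAFF303099, 37 in apn1 with MAFF303099 and 29 in apn1 with TONO. The low levels at 5 dai and, except in apn1 with TONO, the high levels at 10 dai were part of the choice. Both favour this order, so the counts are not compared, and no share over all gene models was computed.

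**Figure D5:**
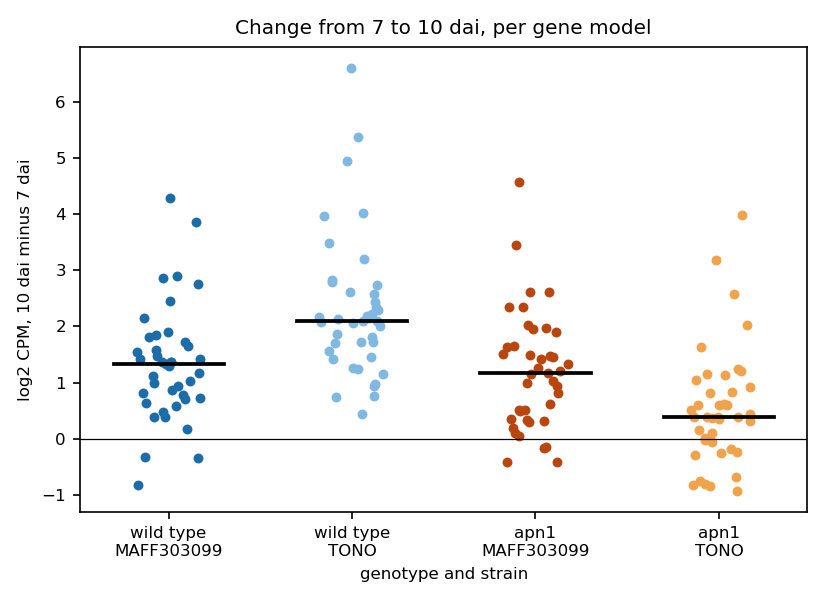
Difference between 10 and 7 dai (log2 CPM, vertical axis) of each of the 41 gene models in the 4 combinations of genotype and strain, 1 point per gene model, with the median as a bar. The medians are 1.33, 2.11, 1.18 and, for apn1 with TONO, 0.40, where 12 points lie below 0.

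The members were set beside 2 other root-silent sets, without a test of the difference. An early set of 72 gene models had at least 30 CPM on average at 5 dai. A low late set of 116 was chosen like the members but had a mean of 5 to 30 CPM at 10 dai. In the early set the median log2 difference of 10 from 7 dai was below 0 in all 4 combinations, though some gene models were higher. This median was −0.67 in wild type with MAFF303099, with 33 of 72 gene models at least 2-fold lower, and −0.53 in wild type with TONO, with 27. In apn1 it was −0.94 with MAFF303099, with 34, and −0.99 with TONO, with 36. At least 2-fold higher were 7, 17, 5 and 0 in this order. Over all gene models tested, 13.1, 15.3, 13.4 and 7.8% were at least 2-fold lower, and 8.03, 10.7, 7.06 and 5.24% at least 2-fold higher. The low late set had a median of −0.01 in apn1 with TONO. Between apn1 and wild type with TONO at 10 dai, the medians were −0.75 in the early set and −1.23 in the low late set, against −1.83 in the members. In the fit with a further term for apn1 with TONO at 10 dai, 6 early gene models (8.33%) were called lower. So were 7 low late ones (6.03%) and 7 members (17.1%), against 2.18% of all gene models. Higher calls numbered 2, 2 and 0 in this order, against 2.03%. The median departures were −0.12, −0.76 and −0.76. Lower with TONO in the fit to the 7 dai libraries were 8 of the 72 early gene models (11.1%), 35 of the 116 low late ones (30.2%) and 14 of the 41 members (34.1%). Called higher with TONO were 10, 3 and 0 in this order, so the early set had calls in both directions. Over all gene models, 1.99% were called lower and 2.58% higher.

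Genotypes and strains were also compared over the 3 days together, in a model of the 12 nodule libraries with genotype-strain combination and day as terms and 6 residual degrees of freedom. It called 0 of 41 members in each of 5 contrasts with edgeR. It called 0 to 85 of 32549 gene models per contrast and drew on 5 and 10 dai libraries that chose the members, so these counts of 0 do not show that the members did not differ. For apn1 against wild type with MAFF303099, the smallest adjusted p was 0.698 and no member had an unadjusted p under 0.05, and 0.0522% of all gene models were called. For TONO against MAFF303099 in wild type it was 0.21, with 4 members at an unadjusted p under 0.05 and 0.261% of all gene models called. For apn1 against wild type with TONO it was 0.32, with 8 such members and 0.0614% called. For TONO against MAFF303099 in apn1 it was 0.63, with 12 such members and 0% called, and for the interaction 0.516, with 1 and 0%. The percentages called refer to adjusted p. At an unadjusted p under 0.05 stood 2421, 5034, 3185, 1748 and 2691 of all 32549 gene models, in the order of these contrasts. Limma called 0 members in each, and DESeq2 called 1 in the second and 1 in the third contrast. Without wild type with TONO at 7 dai, edgeR called 1 in the third. The medians of the 5 contrasts were −0.25, −0.27, −0.64, −0.74 and −0.41. The last 3 contrasts contain apn1 with TONO at 10 dai set against libraries that chose the members. The model takes the effect of day as equal in all combinations, and p-values measure only the spread between these single libraries around it.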

How the data were processed

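Per the labels' protocols, RNA from excised nodules and roots was depleted of ribosomal RNA and made into libraries with a ScriptSeq version 2 kit. The authors deposited 12 tables, each with the read counts of 1 nodule library and its root, per the file headers. Each also holds a normalized signal, made with iDEGES/DESeq per the file headers, which is on a separate scale in each table and was not used for results. Bowtie2 2.0.2 and DESeq are listed in the submitters' processing notes. The build, the annotation and the strand setting of the counting are not given in these sources. Reads may therefore be shared by gene models that overlap, lie antisense or are near-identical.

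Counts were scaled with TMM over the 14 libraries, each root used once. Gene models whose mean scaled count reached 10 were tested with edgeR 4.0.16's quasi-likelihood test (R 4.3.3), adjusted over all of them, two-sided, and called under 0.05. The nodule model was set in the design; its additional term and the fit to the 7 dai libraries were added after the data were seen. Standard errors were obtained as the fitted log2 difference over the square root of F. limma 3.58.1 and DESeq2 1.42.0 were alternatives, as were other scalings, no filter, other limits and libraries left out. The fits were tested on simulated data. Named members were those highest or lowest on fixed measures, the 2 largest called per contrast and direction, those at the limits, and the longest run. Planned lists by gene symbol could not be applied. The members and lists were chosen with earlier results of these data known. Intervals and the floor of 3 counts cover counting error only.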

Additional observations from a re-analysis of the deposited data

Results flagged for a closer look

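The difference between the strains at 10 dai went in opposite directions in the genotypes. The median log2 difference of TONO from MAFF303099 over the 41 members was 0.53 in wild type and −1.11 in apn1. Higher with TONO in wild type and lower with TONO in apn1 were 27 members, against 23.3% of all gene models. Each value sets 1 library against 1, and the difference between the genotypes was not tested at this day. Over the 3 days together, the interaction test called 0 of 41 members (smallest edgeR adjusted p = 0.516). It called 0 of all 32549 gene models, so it cannot decide whether the members differed. Of the 4 libraries, apn1 with TONO did not choose the members and the other 3 did, and wild type with TONO had the smallest TMM factor, 0.762, against 1.004 for apn1 with TONO. For the 29 members chosen without any TONO library, the medians were 0.45 in wild type and −1.39 in apn1. These 29 were picked for high levels in both MAFF303099 libraries of 10 dai, which favours lower values with TONO in both genotypes. Without TMM scaling the wild type median of the 41 members was 0.27.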

How the results depend on the processing

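No paired analysis was possible because the labels give no replicate numbers and each condition has 1 library. The number of members was 27 with a root limit of 0.5 CPM, 25 with a 5 dai limit of 2.5 CPM, and 67 and 26 with 10 dai limits of 15 and 60 CPM, and ran from 36 to 50 when a library was left out of the rule. In the nodule model DESeq2 called 1 member for TONO against MAFF303099 in wild type and 1 for apn1 against wild type with TONO; for the latter edgeR called 0 to 1 when a library or day was left out. For the departure of apn1 with TONO at 10 dai, DESeq2 called 11 members, and 0 to 8 were called with a library or day left out. For TONO against MAFF303099 at 7 dai, 7 were called without the genotype term, and 0 to 11 when a library was left out of that form. For apn1 against wild type at 7 dai, DESeq2 called 1, and 0 were called without the strain term and 0 to 0 with a library left out. In that last form the log2 fold change of chr1.LjT10G23.80.r2.m ran from −2.15 to 0.83 and that of chr2.CM0081.450.r2.m from −1.37 to 0.093. With both terms, no library can be left out of the 7 dai fit. The median of apn1 minus wild type with TONO at 10 dai was −1.43 without TMM scaling. The causes were not tested, and the share of all gene models called was not computed for the alternative fits. The medians of apn1 minus wild type at 7 dai lay on both sides of 0 over the alternatives, from −0.11 to 0.057 with MAFF303099 and from −0.081 to 0.079 with TONO. The latest member, LjSGA_143580.1, rests on 6 to 180 counts at 7 dai.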
